A study of Mus musculus with 10 samples.

Results

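Macrophages make cholesterol and fatty acids and also export them, and 37 genes of these processes were followed across 5 conditions of mouse bone marrow-derived macrophages (BMDMΦs). The genes were chosen by symbol: 18 of sterol synthesis and its control, 10 of fatty acid synthesis, 5 targets of the liver X receptor (LXR), and 4 further genes of lipid handling. On the array, 34 of the 37 were matched to a probe set, of 22206 probe sets in all, and each of the 34 had a single probe set. No match to a probe set was found here for Srebf1 and Scd2 of the fatty acid genes, nor for Soat1.

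The study asked how medium conditioned by cancer-associated fibroblasts (CAFs) with or without the transcription factor Snail1 changes macrophages. BMDMΦs from male C57Bl/6J mice, grown with L929-conditioned medium as a source of M-CSF, were kept for 48 h in conditioned medium (CM) of Snai1 knockout CAFs (KO CAF CM), in CM of Snai1-expressing CAFs (WT CAF CM), with 10 ng/mL IL4, with 100 units/mL IFNγ, or in complete medium only (not stimulated), with 2 arrays per condition. The CAFs came from mammary tumors driven by the PyMT oncogene, and their CM was collected after serum starvation. No array holds macrophages in such starved medium without CAFs, so for lipid genes the effect of lost serum and that of CAF products cannot be told apart. WT and KO are taken as the state of the CAFs, as in the sample titles, although the deposited descriptions give them as the state of the macrophages. Nothing in the labels tells separate mice or cultures from repeat arrays, so the p-values reflect only the spread of these arrays, which may be technical.

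Cells sense cholesterol in the endoplasmic reticulum. When it is low, the escort protein SCAP carries SREBP2 (gene Srebf2) to the Golgi, where it is cut and released to switch on the genes of cholesterol synthesis, and when it is high, INSIG proteins hold the complex back. SREBP1 does the like for fatty acid synthesis. LXR (gene Nr1h3 for LXRα) is activated by oxysterols and switches on genes that move cholesterol out of the cell, and macrophages use both arms because they take up the lipid of dead cells and lipoproteins.

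Signals are log2 values, and a difference of 1 is 2-fold. A gene is said to rise or fall when its difference had a p-value under 0.05 in limma after Benjamini-Hochberg adjustment over all 22206 probe sets; a p that misses this threshold does not show that the values did not differ. Medians of the arrays were 5.57 to 5.71, and arrays within each condition correlated with r between 0.9936 and 0.9952. Single genes could still differ widely between replicates. Arg1, a marker of the IL4 response, was at 5.36 and 10.79 in the WT CAF CM arrays, against 5.17 and 4.99 in not stimulated macrophages. Of the macrophage markers, 5 of 6 were measured, with signals of 9.4 to 17.49. Adgre1 rose with KO and WT CAF CM (1.04 and 0.96) and Itgam with WT CAF CM (0.98), Fcgr1 fell with IL4 (-1.7) and rose with IFNγ (1.48), and Mertk fell with KO CAF CM (-2.52) and with IL4 (-1.04). Of these 7 differences, those of Adgre1 and Mertk with KO CAF CM passed without any single array, Adgre1 with WT CAF CM was lost without replicate 1 of that medium or of the not stimulated arrays (0.85 to 1.07), Itgam without WT CAF CM replicate 2 (0.93 to 1.03), Fcgr1 with IL4 without IL4 replicate 1 or not stimulated replicate 2 (-2.13 to -1.26) and with IFNγ without IFNγ replicate 2 or not stimulated replicate 1 (1.24 to 1.72), and Mertk with IL4 without either IL4 array or not stimulated replicate 1 (-1.33 to -0.75). The linear signals of the 5 were also summed and the log2 of the sum taken, a value in which the brightest genes weigh most. It was 18.63 to 18.79 with KO CAF CM, 18.95 to 18.98 in WT CAF CM, 18.11 to 18.21 with IL4 and 18.2 to 18.47 with IFNγ, against 18.35 to 18.45 in not stimulated macrophages. Of 3 dendritic cell markers, 1 rose with IFNγ: Xcr1 was at 6.21 and 6.47, against 3.73 and 3.58 in not stimulated macrophages (2.68, adjusted p = 4.1e-06 in limma), and this passed without any single array, while Flt3 and Zbtb46 stayed between 3.36 and 3.96 in all arrays. The log2 of the summed linear signals of the 3 was 6.67 to 6.81 with IFNγ, against 5.17 to 5.29 in not stimulated macrophages. The 5 fibroblast markers stayed between 3.21 and 6.56 in all arrays, and 0 of 5 passed in any comparison, with at most 1 at an unadjusted p under 0.05. Of 4 measured neutrophil markers, 1 rose with the CAF media: S100a8 was at 12.18 and 11.35 with KO CAF CM and 10.23 and 12.88 in WT CAF CM, against 7.76 and 6.6 in not stimulated macrophages, while S100a9, Ngp and Mpo did not pass. The log2 of the summed linear signals of the 4 was 11.44 to 12.21 with KO CAF CM, 10.37 to 12.92 in WT CAF CM and 8.08 to 8.47 in not stimulated macrophages. The part of these markers in the results was not tested. In bulk RNA, fewer expressing cells and less RNA per cell cannot be told apart.

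Of the 34 members, 14 fell and 3 rose with IFNγ, where 6.68% of all probe sets fell and 5.38% rose. With KO CAF CM 6 fell and 3 rose, where 8.0% of all probe sets fell and 6.83% rose. With WT CAF CM 4 fell and 2 rose, where 4.47% fell and 4.08% rose. With IL4 1 fell and 2 rose, where 2.38% fell and 1.66% rose. The 4 comparisons share the same 2 not stimulated arrays, and how far IFNγ led KO CAF CM by count depended on single arrays. Without IFNγ replicate 2, 8 members changed with KO CAF CM and 8 with IFNγ, and without not stimulated replicate 2, 7 with KO CAF CM and 8 with IFNγ. Between the CAF media, 2 members were higher and 1 was lower with KO than with WT CAF CM, where 0.666% of all probe sets were higher and 0.694% were lower. Between the cytokines, 8 members were higher and 2 lower with IL4 than with IFNγ, where 5.83% were higher and 6.20% lower.

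**Figure D1:**
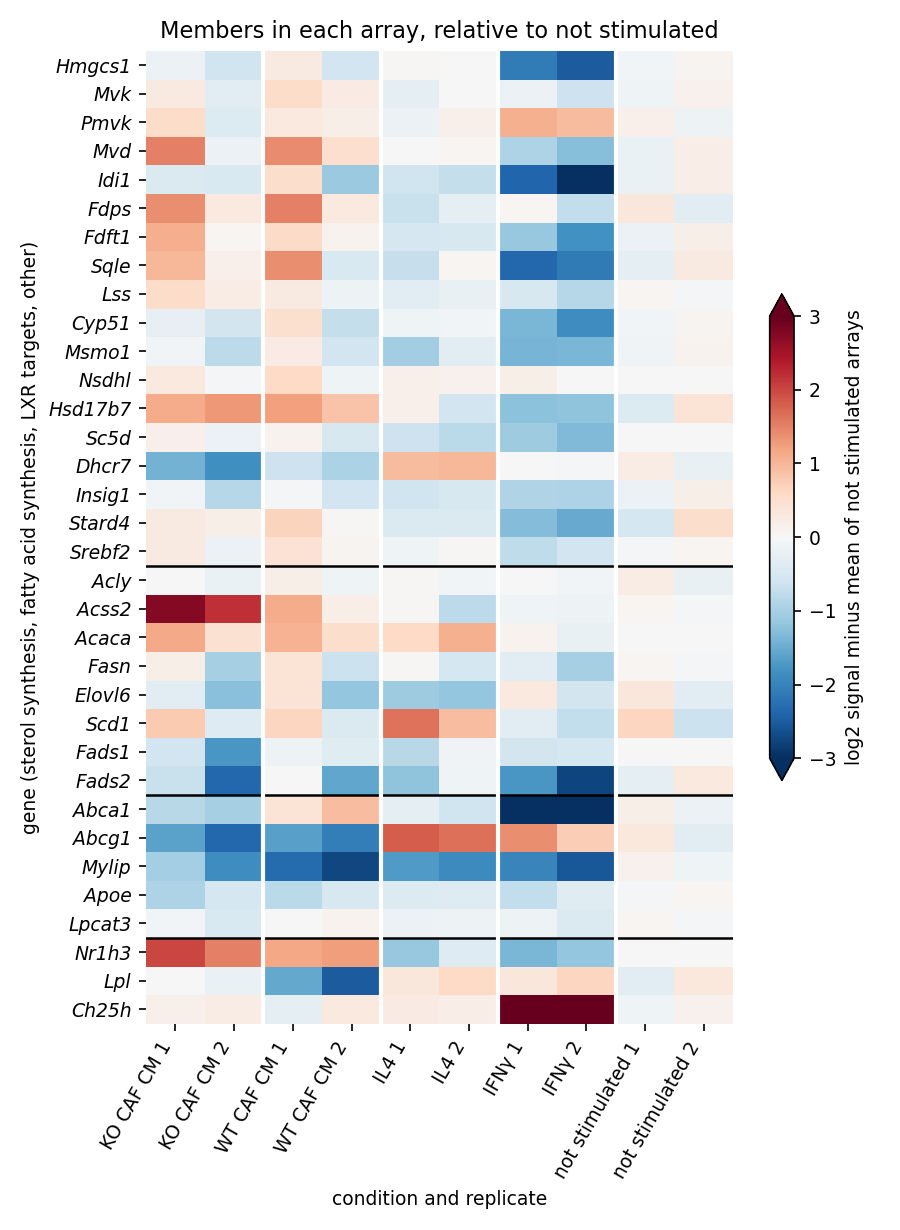
Log2 signal of each of the 34 measured members (vertical axis, grouped by role) in each of the 10 arrays (horizontal axis), minus the mean of the not stimulated arrays (color, limited to 3 in either direction). Most sterol synthesis genes are blue in the IFNγ arrays, Dhcr7 is blue with both CAF media, and Abca1 and Abcg1 have opposite colors with IFNγ.

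The fall with IFNγ ran along the sterol pathway. Of its 18 genes, 10 fell and 1 rose, where 6.68% of all probe sets fell and 5.38% rose. The median difference was -1.15, against -0.01 over all probe sets. Hmgcs1, HMG-CoA synthase at the head of the pathway, had signals of 11.21 and 10.8 with IFNγ, against 13.22 and 13.38 in not stimulated macrophages. Idi1, the isomerase that makes the second isoprenoid building block, had 7.99 and 7.37 with IFNγ, against 10.16 and 10.58. For both genes the IFNγ arrays lay below all 8 other arrays. The falls were 4.91-fold for Hmgcs1 (log2 difference -2.29, SE 0.27, adjusted p = 0.00015) and 6.45-fold for Idi1 (-2.69, SE 0.41, adjusted p = 0.00094; limma, 2 arrays per condition).

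Promoters of 3 genes that fell and of 1 that did not pass (Nsdhl) are shown, because sterol genes are known for shared control letters near their start. They are 300 bases around the start of the gene, from RefSeq on GRCm38.p6: Hmgcs1 at chr13:119690101-119690400 and Idi1 at chr13:8885356-8885655 on the plus strand, Cyp51 at chr5:4104648-4104947 on the minus strand, and Nsdhl at chrX:72918271-72918570 on the plus strand. Capitals mark the box of the factor NF-Y (CCAAT on either strand) and, in Hmgcs1, also the sterol regulatory element TCACNCCAC, where SREBP binds.
Hmgcs1: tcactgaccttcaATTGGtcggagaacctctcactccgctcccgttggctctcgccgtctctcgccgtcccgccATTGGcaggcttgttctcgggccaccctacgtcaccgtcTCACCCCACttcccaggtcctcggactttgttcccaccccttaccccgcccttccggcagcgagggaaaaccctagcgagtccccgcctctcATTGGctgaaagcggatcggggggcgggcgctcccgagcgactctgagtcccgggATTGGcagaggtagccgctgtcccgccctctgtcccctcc
Idi1: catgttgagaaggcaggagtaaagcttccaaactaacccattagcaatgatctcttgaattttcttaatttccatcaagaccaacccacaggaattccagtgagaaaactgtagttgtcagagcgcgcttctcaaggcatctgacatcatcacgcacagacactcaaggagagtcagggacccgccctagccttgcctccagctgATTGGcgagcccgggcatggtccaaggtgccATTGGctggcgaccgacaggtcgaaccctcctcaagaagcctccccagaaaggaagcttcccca
Cyp51: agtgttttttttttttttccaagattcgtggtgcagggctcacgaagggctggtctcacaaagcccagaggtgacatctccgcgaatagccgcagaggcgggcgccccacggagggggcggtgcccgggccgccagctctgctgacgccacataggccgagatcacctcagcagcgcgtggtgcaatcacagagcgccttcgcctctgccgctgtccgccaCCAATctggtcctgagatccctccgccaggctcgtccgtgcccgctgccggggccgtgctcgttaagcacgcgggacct
Nsdhl: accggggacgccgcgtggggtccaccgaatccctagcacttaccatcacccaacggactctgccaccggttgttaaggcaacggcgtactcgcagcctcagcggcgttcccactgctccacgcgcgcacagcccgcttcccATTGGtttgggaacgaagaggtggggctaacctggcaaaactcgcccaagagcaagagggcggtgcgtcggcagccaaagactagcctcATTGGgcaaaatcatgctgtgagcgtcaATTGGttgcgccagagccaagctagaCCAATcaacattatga
The element in Hmgcs1 lies 137 bases before the start, between NF-Y boxes at 176 and 45 bases before it. Of the 18 sterol genes, 14 had a promoter in the RefSeq table, and Hmgcs1 was the 1 gene of the 14 to hold TCACNCCAC, against 1.44% of the 27025 genes in the table. Variants of this element were not searched, so a promoter without a mark, such as that of Cyp51, may still hold a site for SREBP. The CCAAT box was in a promoter of 14 of the 14, against 41.1% of all genes, and in 14 of their 17 promoters (82.4%, against 37.4% of all 32851 promoters). It stood in genes that fell with IFNγ and in genes that did not pass, such as Nsdhl. Of the fatty acid genes 3 of 6 held it, and of the LXR targets 2 of 4. The LXR element was searched only as 2 exact copies of AGGTCA in the same direction with 4 bases between them. This exact form was in 0 promoters of members and in those of 4 genes of the table. With a form so rare, and with variants of it not searched, the 0 does not show that a member lacks an LXR element. These matches of letters were not tested as binding sites.

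In the middle of the pathway 3 genes fell too, while Lss did not pass. Sqle, squalene epoxidase, a rate-limiting enzyme, had 7.45 and 7.67 with IFNγ, against 9.53 and 10.06 in not stimulated macrophages. Fdft1, squalene synthase, had 8.82 and 8.14 with IFNγ, against 9.78 and 10.15. Cyp51, the lanosterol demethylase, had 10.16 and 9.67 with IFNγ, against 11.46 and 11.62. In these 3 genes the IFNγ arrays were below those of every other condition, and the falls were 4.71-fold for Sqle (-2.24, SE 0.5, adjusted p = 0.011), 2.8-fold for Fdft1 (-1.48, SE 0.33, adjusted p = 0.011) and 3.08-fold for Cyp51 (-1.62, SE 0.32, adjusted p = 0.0055; limma).

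Msmo1, the sterol methyl oxidase, had 9.33 and 9.35 with IFNγ, against 10.61 and 10.82 in not stimulated macrophages. Hsd17b7, which acts as a keto reductase of sterols, had 8.35 and 8.38 with IFNγ, against 9.18 and 9.99. Sc5d, a sterol desaturase near the end of the pathway, had 12.01 and 11.73 with IFNγ, against 13.05 and 13.08. The IFNγ and not stimulated arrays did not overlap in any of the 3 (differences -1.37, -1.22 and -1.19; adjusted p in limma 0.015, 0.017 and 0.0042). A carrier and a regulator fell with them. Stard4, which carries cholesterol between membranes, had 8.36 and 8.14 with IFNγ, against 9.14 and 10.18. Insig1, which holds SREBP back and is itself an SREBP target, had 10.93 and 10.91, against 11.65 and 12.02. Their differences were -1.41 (SE 0.31) and -0.91 (SE 0.27).

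Not every step followed. Pmvk, phosphomevalonate kinase, rose with IFNγ, with 8.85 and 8.75 against 7.95 and 7.64 in not stimulated macrophages (difference 1, SE 0.28, adjusted p = 0.037 in limma). Dhcr7, the reductase of the last step to cholesterol, had 11.1 and 11.06 with IFNγ, against 11.32 and 10.88, and Nsdhl, a sterol dehydrogenase, had 12.19 and 12.01, against 12.04 and 12. In both the values were close, with 95% intervals of the difference from -0.5 to 0.46 for Dhcr7 and from -0.44 to 0.6 for Nsdhl. Mvd, Lss, Srebf2, Mvk and Fdps had differences of -1.1, -0.66, -0.67, -0.4 and -0.33 that did not pass, with adjusted p from 0.068 to 0.77 (limma). Some of these passed under alternatives. Mvd fell in a limma fit of the 2 conditions alone (adjusted p = 0.015). Lss fell with the replicate number as a block and with trend and robust moderation. Srebf2 fell with the same moderation and with array weights.

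The falls of Hmgcs1, Idi1 and Sc5d passed without any single array of the 10. Without IFNγ replicate 2, 3 genes of the 10 fell, without not stimulated replicate 2 4 genes, without IFNγ replicate 1 6 genes, and without not stimulated replicate 1 8 genes. Cyp51 stopped passing only without IFNγ replicate 2, Fdft1 and Stard4 also without not stimulated replicate 2, Sqle and Hsd17b7 also without IFNγ replicate 1, and Msmo1 and Insig1 without any of these 4, Insig1 also without either IL4 array. The differences of these 7 genes without 1 array lay between -2.5 and -0.73. Pmvk stopped passing without any of the 4 arrays compared (0.85 to 1.16), and Pmvk and Insig1 also after median centring.

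**Figure D2:**
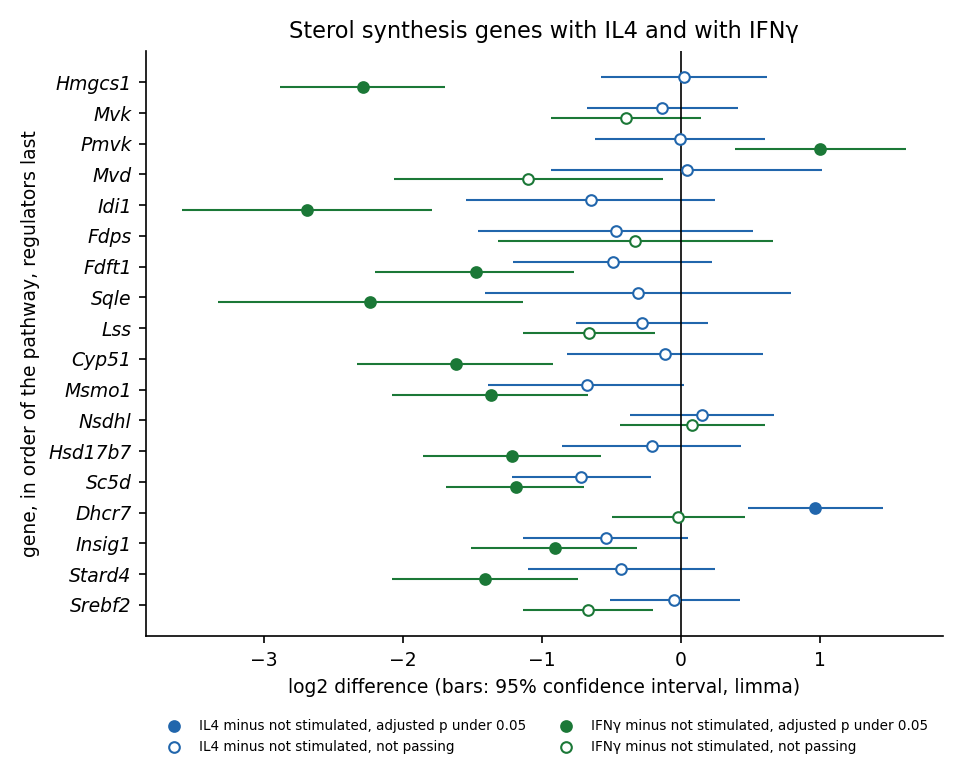
Log2 difference from not stimulated macrophages (horizontal axis, with 95% confidence intervals) for the 18 sterol synthesis genes (vertical axis, in pathway order with Insig1, Stard4 and Srebf2 last) with IL4 in blue and with IFNγ in green; filled points have an adjusted p under 0.05 in limma. With IFNγ 10 genes lie filled below 0 and Pmvk above it, and with IL4 only Dhcr7 is filled.

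IL4 left the pathway nearer to its level in not stimulated macrophages. With IL4, 1 of the 18 sterol genes rose and 0 fell in limma, where 1.66% of all probe sets rose and 2.38% fell. An unadjusted p under 0.05 was found for 2 of the 18, and the median difference was -0.25, against 0 over all probe sets. The gene that rose was Dhcr7, at 12.04 and 12.09 with IL4, against 11.32 and 10.88 when not stimulated (0.96, SE 0.22, adjusted p = 0.032). It lay above all 8 other arrays. The call did not hold without either IL4 array, either IFNγ array or not stimulated replicate 2 (0.74 to 1.18 without 1 array), nor in a fit of the 2 conditions alone or after median centring.

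Set directly against each other, the cytokines differed in 7 of the 18 sterol genes, with 6 higher and 1 lower with IL4 than with IFNγ. Of all probe sets 5.83% were higher and 6.20% lower. The median difference was 0.84, against 0.02 over all probe sets. Hmgcs1 had 13.34 and 13.3 with IL4, against 11.21 and 10.8 with IFNγ (4.98-fold, difference 2.31, SE 0.27, adjusted p = 0.00011 in limma). Idi1 had 9.77 and 9.66 with IL4, against 7.99 and 7.37 (4.1-fold, difference 2.04, SE 0.41, adjusted p = 0.0055). Sqle, Cyp51, Hsd17b7 and Dhcr7 were higher with IL4 by 1.92, 1.51, 1.01 and 0.98, and Pmvk was lower, by -1.01. Hmgcs1 alone of the 7 passed without any single array. Without IFNγ replicate 2 Idi1 also stopped passing (1.72 to 2.34 without 1 array, highest adjusted p = 0.067), as did Cyp51 without this array or IL4 replicate 2, and the other 4 genes stopped passing without at least 2 of the 4 arrays compared. Sqle stopped passing without IL4 replicate 2 or either IFNγ array and with trend and robust moderation, Hsd17b7 without IL4 replicate 1, either IFNγ array or any CAF CM array, with the replicate number as a block and after quantile normalization, and Dhcr7 and Pmvk without any of the 4. Without 1 array the differences of Sqle, Cyp51, Hsd17b7 and Dhcr7 lay between 0.64 and 2.3, and that of Pmvk between -1.18 and -0.85.

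With the CAF media the pathway did not move as a whole. Of the 18 sterol genes, 1 rose and 1 fell with KO CAF CM (median difference 0.06, against -0.01 over all probe sets), and 1 rose and 1 fell with WT CAF CM (0.23, against -0.02). Each is 5.56% of the 18, near the shares of all probe sets. Of these, 6.83% rose and 8.0% fell with KO CAF CM, and 4.08% rose and 4.47% fell with WT CAF CM. With each medium the gene that rose was Hsd17b7 and the gene that fell was Dhcr7, both set against the same not stimulated arrays. Hsd17b7 had 10.7 and 10.89 with KO CAF CM and 10.81 and 10.45 in WT CAF CM, against 9.18 and 9.99 in not stimulated macrophages, so that all 4 CAF CM arrays lay above the other 6. Dhcr7 had 9.68 and 9.25 with KO CAF CM and 10.47 and 10.16 in WT CAF CM, against 11.32 and 10.88, below all 6 other arrays. Hsd17b7 rose by 1.21 (SE 0.29, adjusted p = 0.015) with KO and by 1.04 (SE 0.29, adjusted p = 0.049) with WT CAF CM, and Dhcr7 fell by 1.64 (SE 0.22, adjusted p = 0.00036) and by 0.79 (SE 0.22, adjusted p = 0.049; limma).

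The fall of Dhcr7 with KO CAF CM passed without any single array. With WT CAF CM it stopped passing without either WT CAF CM, IL4, IFNγ or not stimulated array (-1 to -0.57), in a fit of the 2 conditions alone and after median centring. Hsd17b7 stopped passing with KO CAF CM without KO CAF CM replicate 2 or not stimulated replicate 1 (0.8 to 1.61). With WT CAF CM it stopped passing without any CAF CM or IFNγ array or not stimulated replicate 1 (0.64 to 1.45), with the replicate number as a block, in a fit of the 2 conditions alone and after quantile normalization.

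Between the CAF media, 0 of the 18 sterol genes passed in limma, and 1 had an unadjusted p under 0.05: Dhcr7 was at 9.68 and 9.25 with KO CAF CM, against 10.47 and 10.16 with WT CAF CM (-0.85, 95% interval -1.33 to -0.37, adjusted p = 0.1). The median difference between the media was -0.16, against 0.01 over all probe sets, and the 2 arrays of each medium lay further apart. Replicate 1 was above replicate 2 in 17 of 18 sterol genes with KO CAF CM (median difference between the replicates 0.44, highest 1.67) and in 18 of 18 with WT CAF CM (median 0.61, highest 1.86), against medians of -0.02 and 0.01 over all probe sets. Sqle, for example, had 10.8 and 9.94 with KO CAF CM and 11.19 and 9.33 in WT CAF CM, against 9.53 and 10.06 in not stimulated macrophages, and Mvd had 10.11 and 8.44 with KO CAF CM and 10.02 and 9.12 in WT CAF CM, against 8.41 and 8.81. The same gap was found in 14 of 18 sterol genes with IFNγ (median 0.25), in 5 with IL4 (-0.06) and in 5 of the not stimulated arrays (-0.19). Idi1 was at 10.89 and 9.26 with WT CAF CM, and without replicate 1 of that medium it fell against not stimulated macrophages.

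**Figure D3:**
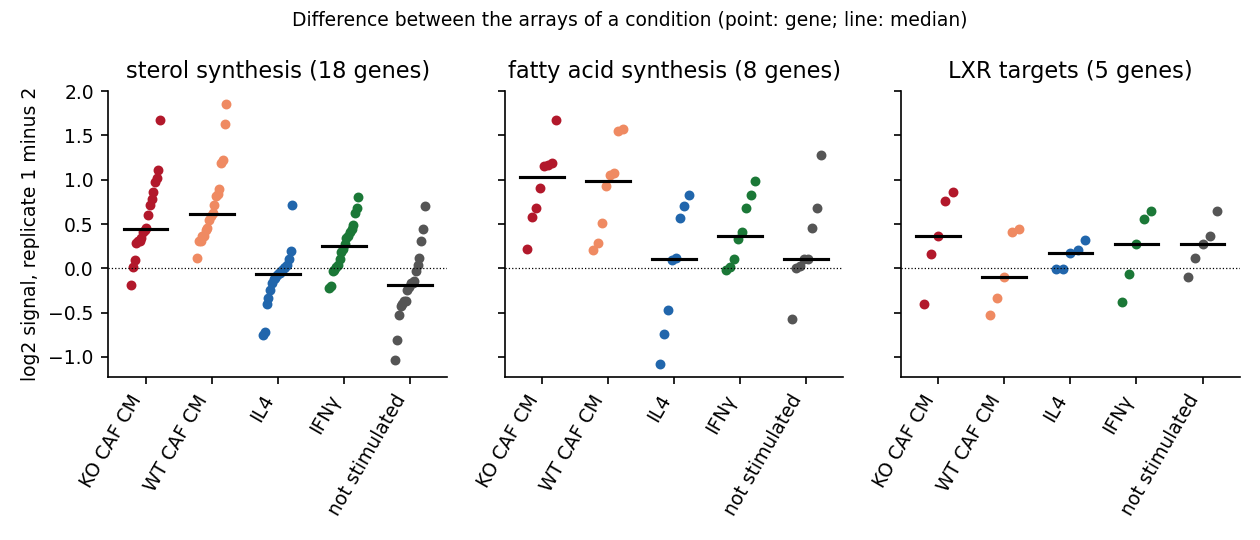
Difference in log2 signal between replicate 1 and replicate 2 of each condition (vertical axis) for each gene (points) of the sterol, fatty acid and LXR groups, with the median as a line. With both CAF media nearly all sterol genes and all 8 fatty acid genes lie above 0. With IFNγ 14 of 18 sterol genes and 7 of 8 fatty acid genes do so. The medians with IL4 and in not stimulated macrophages lie nearer to 0.

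Of the 8 fatty acid genes measured, 1 rose and 1 fell with KO CAF CM, 0 passed with WT CAF CM or IL4, and 1 fell with IFNγ. In addition, 1 was higher with KO than with WT CAF CM, and 1 was higher with IL4 than with IFNγ. Of all probe sets, 6.83% rose and 8.0% fell with KO CAF CM, and 6.68% fell with IFNγ. Between the media 0.666% were higher with KO CAF CM, and between the cytokines 5.83% were higher with IL4. A single gene is 12.5% of the 8, so these counts are not read as a result about the group. Acss2, which makes acetyl-CoA from acetate, had 9.44 and 8.86 with KO CAF CM, against 6.73 and 6.62 in not stimulated macrophages (5.56-fold, difference 2.47, SE 0.33, adjusted p = 0.00036 in limma). With WT CAF CM it had 7.8 and 6.87, against 6.73 and 6.62 (0.66, not passing). The KO CAF CM arrays lay above all 8 others, and the difference between KO and WT CAF CM was 1.81 (3.52-fold, SE 0.33, adjusted p = 0.023). Against not stimulated macrophages the rise with KO CAF CM passed without any single array; the difference between the media did not pass without KO CAF CM replicate 1 or WT CAF CM replicate 2 (1.35 to 2.28), nor in a fit of these 2 conditions alone.

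Fads1 and Fads2, desaturases that make polyunsaturated fatty acids, each fell in 1 condition. Fads1 had 11.58 and 10.42 with KO CAF CM, against 12.17 and 12.14 in not stimulated macrophages (-1.16, SE 0.33, adjusted p = 0.038 in limma). Fads2 had 8.85 and 7.86 with IFNγ, against 10.32 and 10.89 (4.76-fold lower, -2.25, SE 0.6, adjusted p = 0.03). Scd1, which makes monounsaturated fatty acids and has a close relative in Scd2, had 8.89 and 8.19 with IL4, against 6.95 and 6.54 with IFNγ (3.47-fold, 1.79, SE 0.49, adjusted p = 0.032). Each of these 3 calls was lost without some array. Fads1 stopped passing without KO CAF CM replicate 2, either IFNγ array or either not stimulated array (-1.73 to -0.57), in a fit of the 2 conditions alone and after median centring. Fads2 did so without IFNγ replicate 2 or either not stimulated array (-2.75 to -1.75) and with trend and robust moderation, and Scd1 without any of the 4 arrays compared (1.44 to 2.14).

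Acly, Acaca, Fasn and Elovl6 did not pass in any of the 6 comparisons. Acly, which makes acetyl-CoA from citrate, stayed between 11.87 and 12.33 in all 10 arrays. Acaca, acetyl-CoA carboxylase, had 8.34 and 7.66 with KO CAF CM, 8.25 and 7.74 in WT CAF CM and 7.8 and 8.27 with IL4, against 7.21 and 7.21 when not stimulated. These 6 arrays lay above the not stimulated ones, by 0.79, 0.79 and 0.83, with adjusted p of 0.078, 0.11 and 0.14 (limma). Against IFNγ, where Acaca had 7.32 and 6.99, the difference with IL4 was 0.88 (adjusted p = 0.058), and it passed under 5 of the alternatives that kept all its arrays, among them a fit of these 2 conditions alone (adjusted p = 0.043), and without either KO CAF CM array (adjusted p = 0.035). With KO CAF CM it passed after quantile normalization (0.85, adjusted p = 0.038) and without KO CAF CM replicate 2 (1.13, adjusted p = 0.032). Fasn, fatty acid synthase, ranged from 6.49 to 7.91 and Elovl6, an elongase, from 5.94 to 7.62, with the replicates of a condition up to 1.57 apart. In the fatty acid group the median difference from not stimulated macrophages was -0.26 with KO CAF CM, -0.04 with WT CAF CM, -0.31 with IL4 and -0.33 with IFNγ. With WT CAF CM and with IL4, 0 of the 8 genes passed, while 1 and 3 had an unadjusted p under 0.05. As in the sterol group, replicate 1 was above replicate 2 in 8 of 8 genes with KO CAF CM (median 1.03) and in 8 of 8 with WT CAF CM (median 0.99). The gap was not confined to the CAF media. It was found in 7 of 8 genes with IFNγ (median 0.37), in 6 when not stimulated (0.11) and in 5 with IL4 (0.11).

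**Figure D4:**
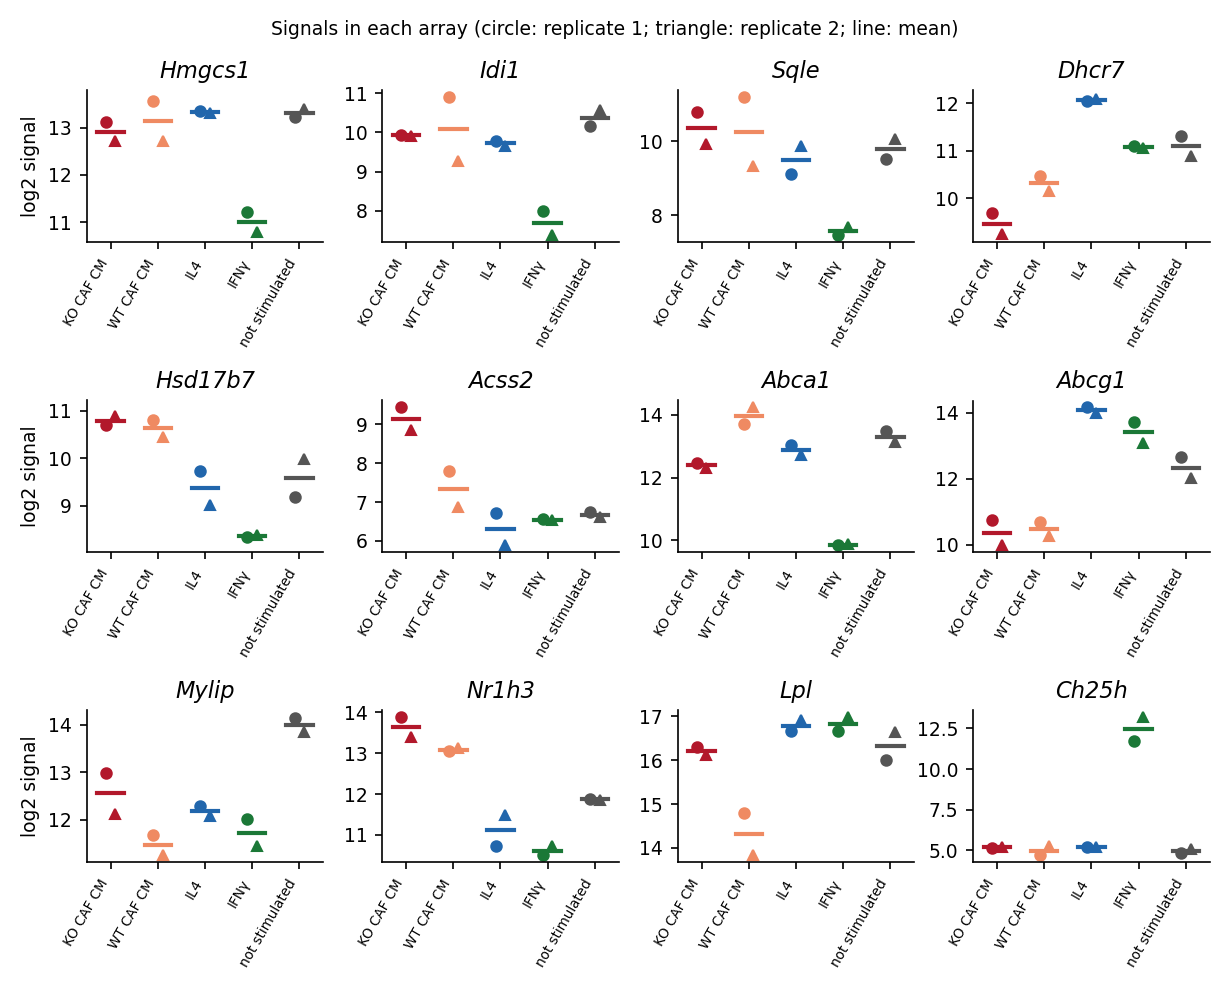
Log2 signal (vertical axis, with its own range for each gene) of 12 members in each of the 10 arrays by condition (horizontal axis), with circles for replicate 1, triangles for replicate 2 and lines for means. Hmgcs1, Idi1, Sqle and Abca1 are lowest with IFNγ, Ch25h is high with IFNγ only, and Abcg1 lies below not stimulated macrophages with both CAF media and above them with both cytokines.

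Of the 5 LXR targets, 4 fell with KO CAF CM (median difference -0.91, against -0.01 over all probe sets) and 2 with WT CAF CM (-0.63, against -0.02), and 0 rose with either. With KO CAF CM, 1 of the 5 fell without not stimulated replicate 1 and 2 without KO CAF CM replicate 2, while with WT CAF CM 2 fell without any single array. With the cytokines their directions were mixed, with 1 that rose and 1 that fell with IL4 (median -0.4) and 1 that rose and 2 that fell with IFNγ (median -0.56). Of all probe sets, 8.0%, 4.47%, 2.38% and 6.68% fell with KO CAF CM, WT CAF CM, IL4 and IFNγ. In the same order 6.83%, 4.08%, 1.66% and 5.38% rose. Abca1 and Abcg1, the transporters that export cholesterol to lipid-poor apolipoprotein and to HDL, went opposite ways with IFNγ. Abca1 had 9.83 and 9.89 with IFNγ, against 13.49 and 13.12 in not stimulated macrophages, and the IFNγ arrays lay below all 8 others (10.9-fold lower, -3.44, SE 0.23, adjusted p = 1.5e-06 in limma). Abcg1 had 13.73 and 13.08 with IFNγ, against 12.66 and 12.01 (2.1-fold higher, 1.07, SE 0.32, adjusted p = 0.048). The fall of Abca1 passed without any single array. The rise of Abcg1 did not pass without IFNγ replicate 1, not stimulated replicate 2, or any WT CAF CM or IL4 array (0.74 to 1.39), nor in a fit of the 2 conditions alone or after median centring.

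With IL4, Abcg1 had 14.16 and 13.99, against 12.66 and 12.01 in not stimulated macrophages (3.34-fold, 1.74, SE 0.32, adjusted p = 0.0088 in limma). Abca1 had 13.03 and 12.71 with IL4, against 13.49 and 13.12, and did not pass. Set against IFNγ, Abca1 was 8.06-fold higher with IL4 (3.01, SE 0.23, adjusted p = 3.1e-06), while Abcg1 did not pass. Abca1 was the 1 LXR target of 5 to pass between the cytokines, and it passed without any single array. The rise of Abcg1 with IL4 did not pass without IL4 replicate 1 or not stimulated replicate 2 (1.41 to 2.06).

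With the CAF media, Abcg1 fell and Abca1 divided the media. Abcg1 had 10.74 and 9.98 with KO CAF CM and 10.7 and 10.26 in WT CAF CM, against 12.66 and 12.01 in not stimulated macrophages. All 4 arrays lay below the other 6, and the falls were 3.93-fold with KO (-1.97, SE 0.32, adjusted p = 0.0012) and 3.62-fold with WT CAF CM (-1.85, SE 0.32, adjusted p = 0.0029; limma), both passing without any single array. Abca1 had 12.47 and 12.31 with KO CAF CM and 13.71 and 14.24 in WT CAF CM, against 13.49 and 13.12. The KO arrays were lower than not stimulated ones (-0.91, SE 0.23, adjusted p = 0.017) and the WT arrays higher by 0.67, which did not pass (adjusted p = 0.11). Between the media Abca1 was 3-fold lower with KO CAF CM (-1.58, SE 0.23, adjusted p = 0.0056), and this passed without any single array, with an adjusted p of at most 0.048, but not in a fit of these 2 conditions alone. The fall in KO CAF CM relative to not stimulated macrophages did not pass without KO CAF CM replicate 2 or not stimulated replicate 1 (-1.1 to -0.73).

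Mylip, a ubiquitin ligase that degrades the LDL receptor, fell in all 4 conditions. It had 12.99 and 12.13 with KO CAF CM, 11.68 and 11.27 in WT CAF CM, 12.3 and 12.09 with IL4 and 12.01 and 11.45 with IFNγ, against 14.14 and 13.86 in not stimulated macrophages, which lay above all others. The differences were -1.44, -2.52, -1.8 and -2.27 (SE 0.29 each; adjusted p in limma 0.0057, 2e-04, 0.0047 and 0.00029), all against the same 2 arrays. Those with WT CAF CM and IFNγ passed without any single array. The fall with KO CAF CM did not pass without KO CAF CM replicate 2 or not stimulated replicate 1 (highest adjusted p = 0.056), nor that with IL4 without not stimulated replicate 1 (highest adjusted p = 0.054). Between the media Mylip had a difference of 1.09 (KO minus WT, adjusted p = 0.13) that did not pass.

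Apoe, the apolipoprotein that macrophages secrete with cholesterol, was highest in not stimulated macrophages. It had 17.37 and 17.77 with KO CAF CM, 17.49 and 17.82 in WT CAF CM, 17.89 and 17.9 with IL4 and 17.54 and 17.92 with IFNγ, against 18.24 and 18.34 in not stimulated macrophages. The not stimulated arrays were the highest of the 10, and the difference passed with KO CAF CM only (-0.72, SE 0.21, adjusted p = 0.043 in limma; -0.63, -0.4 and -0.56 in the others, adjusted p = 0.1, 0.43 and 0.13). That call did not hold without KO CAF CM replicate 1, either IL4 array or either not stimulated array (-0.92 to -0.52), with array weights, after quantile normalization, or in a fit of the 2 conditions alone. Lpcat3, which builds polyunsaturated phospholipids, stayed between 13.68 and 14.24 in all arrays and did not pass in any comparison.

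Nr1h3 itself, which encodes LXRα, rose where Abcg1 and Mylip fell with the CAF media. It had 13.87 and 13.38 with KO CAF CM and 13.04 and 13.12 in WT CAF CM, and 10.5 and 10.72 with IFNγ, against 11.88 and 11.86 in not stimulated macrophages. The CAF CM arrays were the highest 4 of the 10, and the IFNγ arrays the lowest. Nr1h3 rose 3.38-fold with KO CAF CM (1.75, SE 0.25, adjusted p = 0.00059) and 2.31-fold with WT CAF CM (1.21, SE 0.25, adjusted p = 0.011), and fell 2.39-fold with IFNγ (-1.26, SE 0.25, adjusted p = 0.0059; limma). The rise with KO CAF CM passed without any single array. The rise with WT CAF CM was lost when WT CAF CM replicate 2 or either not stimulated array was left out (highest adjusted p = 0.077), and the fall with IFNγ without IFNγ replicate 1 (highest adjusted p = 0.058).

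Ch25h, the hydroxylase that turns cholesterol into an oxysterol, had the largest difference of any member. It had 11.73 and 13.17 with IFNγ, against 4.87 and 5.11 in not stimulated macrophages, and stayed between 4.69 and 5.28 in the 8 arrays without IFNγ. The rise was 176-fold (7.46, SE 0.37, adjusted p = 1.5e-07 in limma), and set against IFNγ the difference with IL4 was -7.24 (SE 0.37, adjusted p = 1.4e-07). Both passed without any single array. No detection call was used, so whether signals near 5 are above background is not known and the fold may understate the change.

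Lpl, the secreted lipase that frees fatty acids from lipoproteins, was low with WT CAF CM alone. It had 16.3 and 16.11 with KO CAF CM and 14.79 and 13.83 in WT CAF CM, against 15.99 and 16.64 in not stimulated macrophages. The WT CAF CM arrays lay below the other 8. Lpl fell 4.01-fold with WT CAF CM (-2, SE 0.31, adjusted p = 0.0015) and was 3.72-fold higher with KO than with WT CAF CM (1.89, SE 0.31, adjusted p = 0.011; limma). The fall with WT CAF CM passed without any single array. The difference between the media did not pass without KO CAF CM replicate 1, KO CAF CM replicate 2 or WT CAF CM replicate 2 (1.41 to 2.38), nor in a fit of these 2 conditions alone.

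Genes of the same pathways outside the 37 gave 4 further lists. Of 9 genes of sterol transport, uptake and ester turnover, all measured, 7 fell with KO CAF CM (median difference -0.95), 6 with WT CAF CM (-0.92), 1 with IL4 (-0.25) and 5 with IFNγ (-0.83), and 0 rose in these comparisons. Of all probe sets 8.0%, 4.47%, 2.38% and 6.68% fell in the same order, with medians of -0.01, -0.02, 0 and -0.01. Plin2, which coats lipid droplets, had 14.77 and 15.02 with KO CAF CM, 15.01 and 15.55 in WT CAF CM and 15.13 and 15.46 with IFNγ, against 16.65 and 16.87 in not stimulated macrophages (differences -1.86, -1.48 and -1.46). Nceh1, a cholesterol ester hydrolase, had 14.45 and 14.05 with KO CAF CM, 15.14 and 14.77 in WT CAF CM and 15.25 and 15.47 with IFNγ, against 16.18 and 16.3 (-1.99, -1.29 and -0.88). In these arrays neither gene overlapped with not stimulated macrophages, and adjusted p lay between 5.5e-05 and 0.016 (limma). Lrp1, an endocytic receptor for lipoproteins, differed by -1.21, -1.23 and -1.23 in the same order, and Scarb1, a receptor for HDL, by -1.1 with IL4. Plin2 in all 3 conditions, and Nceh1 with the CAF media, passed without any single array. Nceh1 with IFNγ did not pass without IFNγ replicate 1 or either not stimulated array (-0.99 to -0.77), Scarb1 with IL4 without IL4 replicate 1 or either not stimulated array (-1.45 to -0.74), and Lrp1 in each condition without at least 3 of the 4 arrays compared (-1.76 to -0.69). Without 1 array the list's counts went down to 3 with KO CAF CM (without KO CAF CM replicate 2), to 2 with WT CAF CM (without WT CAF CM replicate 2), to 0 with IL4 (without IL4 replicate 1 or either not stimulated array) and to 2 with IFNγ (without IFNγ replicate 1 or not stimulated replicate 2). They were 4 with KO CAF CM without not stimulated replicate 2, 3 with WT CAF CM without either not stimulated array, and 3 with IFNγ without not stimulated replicate 1.

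Of 9 further genes of the LXR pathway, 6 were measured, of which 4 fell with KO CAF CM (median difference -1.11), 1 with WT CAF CM (-0.6), 2 with IL4 (-0.94) and 2 with IFNγ (-0.65), and 0 rose, beside the shares and medians of all probe sets given above. Without 1 array these counts went down to 2 with KO CAF CM (without KO CAF CM replicate 2), to 0 with WT CAF CM (without any CAF CM array or not stimulated replicate 1), to 0 with IL4 (without IL4 replicate 1 or not stimulated replicate 1, and 1 without IL4 replicate 2) and to 1 with IFNγ (without either WT CAF CM array, IFNγ replicate 1 or not stimulated replicate 1). Rxra, the partner receptor of LXR, had 8.14 and 7.48 with KO CAF CM and 7.36 and 6.84 with IFNγ, against 9.12 and 9.13 in not stimulated macrophages (-1.31 and -2.03, adjusted p = 0.0052 and 3e-04 in limma). Mertk, a receptor for dying cells and an LXR target, had 9.4 and 9.77 with KO CAF CM and 11.26 and 11.37 in WT CAF CM, against 12.39 and 11.81, and was lower with KO than with WT CAF CM by -1.73 (SE 0.23, adjusted p = 0.0032). For Mertk all 4 CAF CM arrays lay below the not stimulated ones. Smpdl3a, a phosphodiesterase related to acid sphingomyelinase, had 14.58 and 14.79 with KO CAF CM, 14.71 and 14.78 with IL4 and 15.17 and 15.17 with IFNγ, against 15.81 and 15.77 (-1.1, -1.04 and -0.62). Pltp, which transfers phospholipids between lipoproteins, had 16.99 and 16.88 with KO CAF CM, against 17.86 and 17.62 (-0.81). Cd5l, a protein that macrophages secrete, had 11.09 and 12.23 with WT CAF CM, against 13.77 and 15.05 (-2.75). In these 3 genes the arrays named did not overlap with the not stimulated ones. In each of the 5 conditions Cd5l was lower in replicate 1 than in replicate 2. Its fall with WT CAF CM passed with the replicate number as a block. Smpdl3a with KO CAF CM passed without any single array, but with IL4 not without IL4 replicate 1 or not stimulated replicate 1 (-1.08 to -1.01), and with IFNγ not without any WT CAF CM, IL4, IFNγ or not stimulated array (-0.64 to -0.6). Pltp did not pass without KO CAF CM replicate 2 or not stimulated replicate 1 (-0.93 to -0.69), Cd5l without any CAF CM or not stimulated array (-3.39 to -2.11) and with trend and robust moderation, and Mertk with IL4 not without the 3 arrays named above.

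Of 5 measured of 12 further genes of sterol synthesis and SREBP control, Scap, the escort of SREBP, fell with both media (-1.08 and -0.94, adjusted p = 0.0061 and 0.021), Ebp, a sterol isomerase, fell with KO CAF CM (-0.72) and rose with IFNγ (0.71), and none rose with the CAF media. The median difference of the 5 was -0.41 with KO CAF CM, -0.26 with WT CAF CM, -0.34 with IL4, where 0 passed and 2 had an unadjusted p under 0.05, and -0.35 with IFNγ. Of 7 measured of 8 further genes of fatty acid and glycerolipid synthesis, Me1, malic enzyme, which supplies NADPH, had 10.74 and 10.72 with KO CAF CM and 6.81 and 5.39 with IFNγ, against 8.68 and 8.39. Me1 rose with KO CAF CM (2.2, SE 0.35, adjusted p = 0.0012) and fell with IFNγ (-2.43, SE 0.35, adjusted p = 0.00059), and it was the 1 gene of that list to pass against not stimulated macrophages. The median difference of the 7 was -0.05 with KO CAF CM, 0.07 with WT CAF CM, 0.04 with IL4 and -0.02 with IFNγ, and with WT CAF CM and IL4, where 0 passed, 2 and 1 had an unadjusted p under 0.05. Me1, Mertk with KO CAF CM and between the media, Scap with KO CAF CM and Rxra with IFNγ passed without any single array. Rxra with KO CAF CM did not pass without KO CAF CM replicate 2 (-1.65 to -0.98), Scap with WT CAF CM without WT CAF CM replicate 1 or either not stimulated array (-1.23 to -0.66), Ebp with KO CAF CM without KO CAF CM replicate 2 or either not stimulated array (-0.83 to -0.59), and Ebp with IFNγ without any of the 4 arrays compared (0.57 to 0.86), both Ebp calls also being lost after median centring.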

How the data were processed

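RNA of BMDMΦs in 5 conditions was read on Clariom S mouse arrays, 2 per condition. The deposited files hold log2 signals per probe set from RMA, run by the authors to correct background, normalize the arrays and summarise probes; RMA and limma are named in the submitters' notes with no version. All columns entered (0 were left out). The platform's annotation gave 1 gene symbol to 19572 of 22206 probe sets. With limma 3.58.1 (R 4.3.3), 1 model of condition means was fitted over the 10 arrays (5 residual and 6.43 prior degrees of freedom), and the Benjamini-Hochberg adjustment covered all probe sets in each of 6 comparisons (threshold 0.05). The fit was tested on simulated data. Few arrays limit the precision. Members and lists were chosen with earlier results of these data known. Every member could be named, and up to 4 genes per other list and comparison that passed with the same sign in both replicates. Motifs were searched on both strands of RefSeq promoters. Levels of different genes were not compared. Alternatives were a fit of the 2 conditions compared, a replicate block, the dimmest 33.3% of probe sets left out, quantile normalization and median centring. Others were array weights, trend and robust moderation, Student's t-test, a 2-fold minimum, an adjusted p under 0.01, and each array left out in turn. Plots used matplotlib 3.10.9 (Python 3.11.15).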

Additional observations from a re-analysis of the deposited data

Results flagged for a closer look

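With 2 arrays per condition, no array was tested as an outlier. Of the 34 measured members, 3 differed between the CAF media by a test of that difference in limma. Acss2 was higher with KO than with WT CAF CM by 1.81 (log2), Abca1 was lower by -1.58, and Lpl was higher by 1.89. In each of the 3 the KO and WT CAF CM arrays did not overlap. In a fit of these 2 conditions alone 0 of the 3 passed.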

How the results depend on the processing

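Of 48 calls of a member in a comparison, 0 changed direction under any alternative, 17 passed without each of the 10 arrays, and 31 stopped passing without at least 1. Alternatives that change only the test or the threshold cannot turn a direction, so for these the 0 was fixed in advance. The counts of members changed against not stimulated macrophages were 9 with KO CAF CM, 6 with WT CAF CM, 3 with IL4 and 17 with IFNγ. Between the CAF media the count was 3 and between the cytokines 10. Without 1 array they ranged from 4 to 9, 3 to 5, 1 to 3, 8 to 18, 1 to 3 and 3 to 12, in the same order. The lowest counts came without not stimulated replicate 1 (KO CAF CM, WT CAF CM), WT CAF CM replicate 2 (WT CAF CM, the media), IL4 replicate 1 (IL4), not stimulated replicate 2 (IL4, IFNγ), IFNγ replicate 2 (IFNγ, the cytokines) and KO CAF CM replicate 1 (the media). Without IFNγ replicate 1 the IFNγ count was 10, and between the cytokines it was 5 without that array or IL4 replicate 2 and 6 without IL4 replicate 1. At an adjusted p under 0.01 they were 5 with KO CAF CM, 3 with WT CAF CM, 9 with IFNγ, 1 between the media and 5 between the cytokines. Student's t-test at an unadjusted p under 0.05 gave 4 with KO CAF CM, 3 with WT CAF CM, 6 with IL4 and 14 with IFNγ. Between the media it gave 1, and between the cytokines 13. This unadjusted t-test called 1547 to 3624 probe sets. After Benjamini-Hochberg it gave 0 in every comparison, for members and for all probe sets. A fit of the 2 conditions alone gave 0 between the media. With the replicate number as a replicate block the counts were 9, 5, 4, 18, 4 and 13, with 7 members gained in a comparison: Scd1 with IL4, Lss with IFNγ, Mylip between the media (1.09, adjusted p = 0.023) and Fdft1, Acaca, Elovl6 and Abcg1 between the cytokines. Across all limma alternatives 19 such pairs of a member and a comparison were gained. The titles share 2 numbers across conditions without saying what they mark, and the replicate numbers follow them. Over all probe sets, same-numbered arrays deviated together at r of -0.05 to 0.19, which cannot exclude a pairing. Of the 18 sterol genes, replicate 1 was above replicate 2 in 17 with KO CAF CM, 18 with WT CAF CM and 14 with IFNγ. With IL4 and in not stimulated macrophages it was above in 5 each. No pairing was assumed in the main fit, and the counts with a replicate block are those given above. Each member had a single probe set, so no choice among probe sets entered the values of the members. With an array left out, the lone array of its condition is assumed to vary like the other conditions. No background level was used.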
